A study of Bos taurus with 28 samples.

Results

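The arrays of healthy early-lactation liver set the liver RNA of 7 Holstein cows, all of which had calved before, against 1 common reference RNA. They were chosen by their titles, which name healthy cows early postpartum, and make up 14 of the 28 two-colour arrays of the series. Each cow was hybridised on 2 arrays with the dyes exchanged, so liver carried Cy3 on one and Cy5 on the other, and the 2 arrays of a cow were counted as 1 sample. All 14 cows of the study were found healthy on day 4 after calving and were allotted at random. The 7 healthy cows were the control group, described for cows 1 to 6 as fed ad libitum, and the other 7 were fed at 50% of their day 4 intake until signs of ketosis or day 14 postpartum. The reference standard was derived from cattle tissues, and the sources used here do not give which tissues or in what shares. Every healthy array carries the same reference, so its own preparation is not part of the spread between cows.

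The liver makes most of the proteins of blood plasma, turns amino acids and propionate into glucose, makes urea from ammonia, oxidises fatty acids and forms bile. Hepatocytes carry out most of this work. Sinusoidal endothelial cells, Kupffer cells (the macrophages of the liver), stellate cells and bile duct cells make up much of the rest. In early lactation the liver of a dairy cow supplies glucose for milk lactose while it takes up fatty acids released from fat tissue. Against RNA pooled from tissues, a gene used chiefly by liver has a ratio far above the array's middle and a gene used chiefly elsewhere one far below it.

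Values are log2 ratios of liver over reference, on which 1 unit is a 2-fold difference and 0 is the median spot of the array. Higher and lower therefore mean relative to that median spot, not in absolute RNA. The direction, with Cy5 over Cy3 as deposited, was taken as likely because the titles name the dyes and marker genes were checked. Once the sign had been turned on arrays whose liver RNA was in Cy3, hepatocyte markers lay above genes of other tissues on all 14 arrays, by 2.73 to 8.16. In cows 1 to 6 that gap was 6.93 to 8.16 on arrays with liver in Cy5 and 3.41 to 5.60 with liver in Cy3, so the size of the ratios differed by dye. Because markers served that check, the sign of the best-known liver genes is no independent result.

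Healthy cow 7 stood apart. Across probes the log2 ratios of the other 6 cows correlated with one another at r of 0.861 to 0.911, and those of cow 7 with theirs at 0.363 to 0.448, given as a description since all share the reference. Its own 2 arrays correlated at 0.585, against 0.636 to 0.699 for the other cows. Of 6213 genes measured in all 7 cows, cow 7 lay outside the range of the others in 70.1%. It was below all others in 630 of 764 liver-rich genes and above all others in 661 of 957 liver-poor genes, so its ratios were nearer 0 at both ends. The titles put it in the healthy group, but its labels differ from those of the other 6 cows: no description is given, and on its array with liver in Cy3 liver is the first channel, where the other cows' arrays of that kind have the reference first. With the signs turned by the dyes in the titles, hepatocyte markers lay above genes of other tissues on both of its arrays. The array of cow 7 with liver in Cy3 held 574 exact zeros, against 105 to 271 on the other cows' arrays. That with liver in Cy5 held 416 values at the ceiling, a ratio of 100000, against 137 to 278. A reason for the place of cow 7 was not tested. Counts are given with and without it, and the mean without it stands beside a gene or list where it moved most.

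Of 7538 genes tested, 4777 (63.4%) differed from the median spot at an adjusted p under 0.05 in limma's moderated test over the 7 cows. The higher calls numbered 2147 (28.5%) and the lower calls 2630 (34.9%). Genes called with a mean ratio of at least 2-fold were termed liver-rich, 941 genes (12.5%), or liver-poor, 1228 genes (16.3%). Without cow 7, 5302 of 7301 genes (72.6%) were called, 2420 higher (33.1%) and 2882 lower (39.5%), with 995 liver-rich (13.6%) and 1300 liver-poor (17.8%). Of the 914 liver-rich genes that could be tested without cow 7, 900 stayed liver-rich, as did 1159 of 1199 liver-poor genes. The zero point matters for the split: with array medians left as deposited, the median of all genes moved from -0.08 to -0.44, and 24.3% of calls were higher in place of 44.9%.

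Among genes measured in all 7 cows the highest mean was that of APOB. This gene for the protein of very low density lipoprotein particles ran from 0.41 through a median of 8.52 to 9.87 (mean 7.47 ± 3.17 SD, n = 7, limma adjusted p = 0.000264, 8.65 without cow 7). Cow 7 held the lowest value and the other cows lay between 7.99 and 9.87, so the mean ratio was 177-fold with cow 7 and 400-fold without it. CP, the copper-carrying ferroxidase ceruloplasmin, gave 2.001, 8.08 and 8.80 as lowest, median and highest (mean 7.38 ± 2.40, adjusted p = 7.07e-05, 8.28 without cow 7), and FABP1, the fatty acid binding protein of the liver cytosol, gave 4.16, 7.73 and 8.72 (7.27 ± 1.48, 8.78e-06). In both, cow 7 was again the lowest and did not overlap the others.

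ALB, which encodes serum albumin, was the exception among the 15 highest genes: its values ran from 6.29 through 7.06 to 8.22 (mean 7.16 ± 0.70 SD, n = 7, adjusted p = 6.98e-07), and cow 7 was the median cow. Its mean was 6.52 with liver in Cy3 and 7.80 in Cy5 (limma dye term, adjusted p = 0.0348). In the other 14 of these genes cow 7 was the lowest cow. The rest of the 15 were FMO1, a flavin monooxygenase of drug metabolism; CPS1, the entry enzyme of the urea cycle; HRG, a histidine-rich plasma glycoprotein; C5 and C9, late complement components; RGN, a calcium-binding lactonase; LECT2, a hepatokine; IGFBP1, a carrier of insulin-like growth factors; TF, transferrin; APOH, beta-2-glycoprotein; and DPYS, an enzyme of pyrimidine breakdown. Their means lay between 6.53 and 7.27 over 7 cows. Without cow 7 the means of FMO1, C5, CPS1 and DPYS were 8.18, 8.01, 7.91 and 7.24. ADH4, an alcohol dehydrogenase measured in 6 cows, had the highest mean of all genes tested, 7.78 ± 1.80 SD (adjusted p = 3.46e-05, 8.48 without cow 7). In all, 73 genes had a called mean of at least 32-fold.

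**Figure D1:**
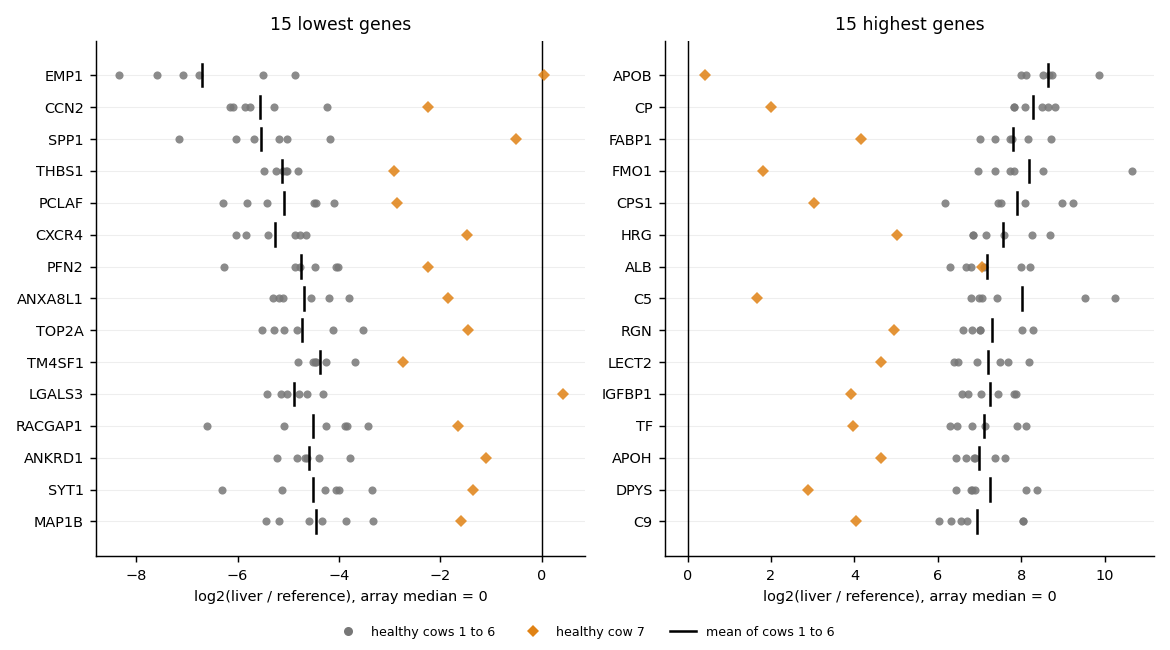
Log2 ratio of liver over reference (x axes, 0 is the median spot of the array) of the 15 lowest and 15 highest genes among those called in all 7 cows with 1 sign on both dyes; grey points are healthy cows 1 to 6, orange diamonds healthy cow 7 and black bars the mean of cows 1 to 6. Cow 7 lies nearer 0 than the other cows in all these genes except ALB, where it is the median cow at 7.06.

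The 15 lowest genes were taken, like the 15 highest, from those measured in all 7 cows. Among genes measured in fewer, PDPN, podoplanin, named after its value was seen, had a lower mean than any of them, -6.55 in 5 cows. EMP1, an epithelial membrane protein, ran from -8.35 through -6.77 to 0.06 (mean -5.73 ± 2.81 SD, n = 7, adjusted p = 0.00057, -6.69 without cow 7), and only cow 7 was above -4.87. CCN2, connective tissue growth factor, gave -6.14, -5.76 and -2.23 (-5.09 ± 1.42, adjusted p = 3.62e-05). THBS1, the matrix protein thrombospondin-1, was closely grouped, at -5.49 to -4.80 in cows 1 to 6 and -2.90 in cow 7 (-4.80 ± 0.86, 5.44e-06). Also among the 15 were SPP1 (osteopontin), CXCR4 (a chemokine receptor), LGALS3 (galectin-3), PFN2 (a profilin), ANXA8L1 (an annexin), TM4SF1 (a membrane protein), MAP1B and SYT1 (of nerve cells), ANKRD1 (of muscle) and PCLAF, TOP2A and RACGAP1 (of dividing cells). Cow 7 was the highest cow in all 15 genes, and without it SPP1 moved from -4.82 to -5.54 and LGALS3 from -4.13 to -4.89. Called means at least 16-fold lower in liver were found for 29 genes.

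Plasma carrier and inhibitor proteins were higher without exception: all 23 tested of 34 listed were called higher and liver-rich, with a median of 5.05 over the list (5.73 without cow 7) beside -0.08 over all genes tested. TTR, the carrier of thyroid hormone and retinol-binding protein, ran from 1.96 through 4.85 to 6.09 (mean 4.63 ± 1.35 SD, adjusted p = 4.37e-05). SERPINA1, the elastase inhibitor alpha-1-antitrypsin, ran from 2.98 through 5.65 to 7.71 (5.73 ± 1.60, 3.54e-05). In both genes cow 7 was lowest and cows 5 and 6 were highest. Cows 5 and 6 had the highest median of this list, 6.60 and 6.72, against 5.01 to 5.97 in cows 1 to 4, and the median absolute deviation of all ratios on their arrays was 0.82 to 0.91, against 0.69 to 0.78 in cows 1 to 4.

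All 8 acute phase proteins tested of 19 listed were called higher, with a median of 5.55. ORM1, alpha-1-acid glycoprotein, ran from 5.04 through 6.03 to 7.64 (mean 6.19 ± 1.02 SD, n = 7, adjusted p = 3.76e-06), with means of 5.55 and 6.83 with liver in Cy3 and Cy5 (limma dye term, 0.0374). FGL1, a fibrinogen-like hepatokine, lay between 6.14 and 7.08 in cows 1 to 6 and at 0.96 in cow 7 (5.83 ± 2.18, 0.000141, 6.64 without cow 7). Complement showed the same direction in all 16 tested of 24, with a median of 4.49 (4.91 without cow 7). C1S, a protease that starts the classical pathway, lay between 5.67 and 7.11 in cows 1 to 6 and at 1.63 in cow 7 (5.70 ± 1.88, 7.71e-05, 6.37 without cow 7). C5 was uneven, at 6.80 to 7.42 in cows 1 to 4, 9.54 and 10.25 in cows 5 and 6, and 1.66 in cow 7.

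Of 14 coagulation and fibrinolysis genes tested, 9 were called higher (64.3%) and 5 lower (35.7%). Over all genes 28.5% were higher and 34.9% lower, so the lower share was near that of all genes. The highest mean was that of FGG, the fibrinogen gamma chain, at 4.33, 6.46 and 8.21 (lowest, median, highest; mean 6.53 ± 1.31 SD, n = 7, adjusted p = 8.37e-06). F9, clotting factor IX, lay between 5.73 and 9.48 in cows 1 to 6 and at 0.75 in cow 7 (5.89 ± 2.60, 0.000321, 6.75 without cow 7), and F13B, a subunit of factor XIII, at 4.57 to 8.24 and -0.09 (5.08 ± 2.60, 0.000719, 5.94 without cow 7). Among the 5 called lower, PLAU, the urokinase plasminogen activator, had -4.84, -2.96 and -1.22 (-3.17 ± 1.18, 0.00015). The remaining ones, named after their values were seen, were PLAT (tissue plasminogen activator), TFPI and TFPI2 (inhibitors of the tissue factor pathway) and SERPINE2 (an inhibitor of thrombin and plasminogen activators), with means of -2.91 to -1.66.

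Of 20 apolipoprotein and lipoprotein genes tested, 18 were called higher, 1 lower and 1 not called. LIPC, hepatic lipase, was measured in cows 1 to 6 only and ran from 4.25 to 6.96 (mean 5.85 ± 0.95 SD, n = 6, adjusted p = 9.46e-06). APOC3, an inhibitor of triglyceride clearance, gave 4.05, 4.92 and 6.86 (5.19 ± 1.12, 1.21e-05). APOA1, the main protein of high density lipoprotein, had a smaller ratio and less spread, at 3.14, 4.05 and 4.27 (3.91 ± 0.40, 1.46e-06). The member called lower was APOO, which despite its name is a mitochondrial inner membrane protein, at -2.20 to -0.54 (-1.36 ± 0.60, 0.000517).

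Among cytochrome P450, alcohol and conjugation enzymes 29 of 30 tested were called higher and none lower, with a median of 3.57 (3.92 without cow 7). CYP2E1, a P450 of ethanol and ketone oxidation, ran from 4.85 through 5.35 to 7.44 (mean 5.84 ± 1.001 SD, n = 7, adjusted p = 4.29e-06). Its ratio depended on the dye, with a mean of 5.09 with liver in Cy3 and 6.59 in Cy5 (limma dye term, adjusted p = 0.0172). FMO1 ran from 1.80 through 7.74 to 10.66, and cow 6 was well above the others. Cow 7 was the lowest cow in both genes, at 4.85 and 1.80.

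Nitrogen metabolism was high as well. Of 32 enzymes of amino acid breakdown tested, 24 were called higher and 3 lower, with a median of 1.69. TAT, tyrosine aminotransferase, had the largest mean of them, 6.88 ± 3.24 SD (n = 6, adjusted p = 0.000865, 8.13 without cow 7); cows 1 to 5 lay between 6.43 and 8.97 and cow 7 at 0.60. HGD, a later enzyme of tyrosine breakdown, gave 2.65, 6.15 and 7.44 (5.87 ± 1.56, 2.98e-05), and MAT1A, which makes S-adenosylmethionine in hepatocytes, 1.55, 6.82 and 9.75 (6.52 ± 2.69, n = 6, 0.000455, 7.51 without cow 7). The lowest called member was SHMT2, the mitochondrial serine hydroxymethyltransferase, at -1.67 to -0.62 (-1.15 ± 0.41, 0.000261).

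All 6 urea cycle genes tested were called higher. CPS1 ran from 3.03 through 7.52 to 9.24 (mean 7.21 ± 2.11 SD, n = 7, adjusted p = 4.21e-05, 7.91 without cow 7). ARG1, the arginase that releases urea, lay between 5.78 and 7.08 in cows 1 to 6 and at 1.503 in cow 7 (5.66 ± 1.90, 8.56e-05, 6.35 without cow 7). OTC, ornithine transcarbamylase, was measured in 5 cows, at 6.77 to 7.88 in cows 1, 2, 4 and 5 and at 3.06 in cow 7 (6.53 ± 1.98, 0.000249), with a mean of 7.40 over the 4 cows without cow 7, too few to test. ASS1, which joins citrulline and aspartate, had a smaller mean ratio, with 2.65, 3.13 and 4.30 (3.34 ± 0.61, 7.33e-06).

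Glucose production was led by PCK1, the cytosolic PEP carboxykinase, at 4.27, 5.996 and 7.36 (mean 6.03 ± 0.999 SD, n = 7, adjusted p = 3.88e-06). FBP1, fructose-1,6-bisphosphatase, gave 1.74, 4.30 and 5.12 (4.12 ± 1.13, 3.52e-05), SLC37A4, the glucose-6-phosphate transporter, 1.12, 3.44 and 4.25 (3.25 ± 1.03, 7.12e-05), and PC, pyruvate carboxylase, 0.87, 2.49 and 2.96 (2.33 ± 0.69, 5.95e-05). Cow 7 was lowest in each of these genes and did not overlap the others. Over the list of 16 tested, 11 were called higher and 3 lower. LDHA, the lactate dehydrogenase subunit typical of muscle, was lower in every cow, at -2.93, -2.40 and -2.09 (-2.51 ± 0.31, 3.46e-06), with cow 7 inside the range of the others at -2.35.

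Fatty acid oxidation and ketone synthesis showed 27 of 28 genes called higher, with a median of 2.04 (2.40 without cow 7). After FABP1 the largest ratios belonged to ECI2, an enoyl-CoA isomerase, at 3.65 to 4.75 (mean 4.29 ± 0.45 SD, n = 6, adjusted p = 3.46e-06), and ETFDH, which passes electrons from acyl-CoA oxidation to ubiquinone, at 3.59 to 4.58 (4.04 ± 0.42, n = 6, 3.46e-06). Neither was measured in cow 7. CPT1A, which controls entry of fatty acids into mitochondria, gave 0.65, 2.16 and 2.76 (1.99 ± 0.69, 0.000134). The 1 gene called lower was ACADSB, an acyl-CoA dehydrogenase for branched chains, at -0.67 to -0.10 (-0.45 ± 0.20, 0.00557), a call lost on arrays with liver in Cy5 alone (adjusted p = 0.139) and with a dye term fitted over all 14 arrays (0.0792).

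Genes for the synthesis of fatty acids, triglyceride and sterols were mixed: 15 of 28 genes were called higher and 5 lower, with a median of 0.42. FADS2, the delta-6 desaturase, was highest, at 2.88, 4.59 and 5.91 (mean 4.68 ± 1.03 SD, n = 7, adjusted p = 1.39e-05). EBP, a sterol isomerase, gave 1.06, 2.86 and 3.76 (2.76 ± 0.92, 9.9e-05), and DGAT2, which completes triglyceride, 0.91, 2.80 and 2.93 (2.46 ± 0.71, 5.31e-05). The genes called lower included fatty acid synthase and enzymes that supply it. ME1, the malic enzyme that supplies NADPH, was at -5.66, -4.10 and -0.70 (-3.73 ± 1.499, 0.000214), and FASN, fatty acid synthase, at -1.93, -1.75 and -0.07 (-1.43 ± 0.67, 0.000659). The other members called lower, named after their values were seen, were ACLY (ATP citrate lyase), ELOVL1 (a fatty acid elongase) and PLIN2 (a lipid droplet coat protein), with means of -1.98 to -0.81. FADS1, the delta-5 desaturase, was not called (0.35 ± 0.72, adjusted p = 0.231), but passed without cow 4 (0.55, 0.0424).

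Bile acid genes were all higher in the 9 tested. SLCO1B3, a bile acid and drug uptake carrier, ran from 5.81 to 8.04 in cows 1 to 6 (mean 7.04 ± 0.74 SD, n = 6, adjusted p = 2.52e-06). AKR1D1, a reductase of the bile acid pathway, was measured in 5 cows, from 1.95 in cow 7 to 8.60 in cow 6 (5.66 ± 2.47, 0.00123). Its mean was 6.59 over the 4 cows without cow 7, too few to test. Of 12 peroxisome genes 6 were called higher (50.0%) and 1 lower (8.3%), beside 28.5% and 34.9% of all genes. The enzymes CAT (catalase), PECR (an enoyl-CoA reductase) and PHYH (phytanoyl-CoA hydroxylase) led, with means of 4.56, 3.79 and 3.13. The member called lower was the import receptor PEX7, at -0.42 ± 0.34 (adjusted p = 0.0234), a call lost on arrays with liver in Cy5 alone (-0.26, 0.372) and without any 1 of cows 1 to 5 (0.0529 to 0.0628).

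Regulators and hormones followed. Of 13 liver transcription factors 11 were called higher and 1 lower. CREB3L3, an ER-bound factor of lipid metabolism, gave 0.62, 3.56 and 5.76 (mean 3.54 ± 1.64 SD, n = 7, adjusted p = 0.000439), and KLF15, a factor of amino acid and glucose metabolism, -0.16, 3.52 and 4.28 (3.13 ± 1.52, 0.00057). CEBPA and PPARA, regulators of hepatocyte identity and of fatty acid oxidation, had means of 2.02 ± 1.16 and 1.60 ± 1.07 (adjusted p = 0.00153 and 0.00338), and PPARA missed the threshold on arrays with liver in Cy5 alone (0.0505). HNF4A, a master regulator of hepatocytes, had a mean of 3.51 ± 1.01, but its 2 probes differed widely, at 0.60 and 6.43. NR2F1, an orphan receptor, was lower, at -2.04, -1.60 and -0.48 (-1.54 ± 0.51, 0.000142), with a mean of -1.97 with liver in Cy3 and -1.10 in Cy5 (limma dye term, adjusted p = 0.0194).

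Of 16 genes of growth hormone action, IGF carriers and hepatokines, 13 were called higher. LECT2 gave 4.63, 6.93 and 8.17 and IGFBP1 3.91, 7.03 and 7.87, the largest of the list. IGF1, the hormone made by liver under growth hormone, had 0.33, 3.09 and 4.25 (mean 2.87 ± 1.22 SD, n = 7, adjusted p = 0.000289), and LEPR, the leptin receptor, 0.35, 4.32 and 4.99 (3.72 ± 1.56, 0.00026). IGF2, a fetal-type growth factor, varied little, at 2.30, 2.67 and 3.24 with cow 7 inside the range (2.73 ± 0.28, 2.52e-06). Its ratio depended on the dye, with a mean of 2.27 with liver in Cy3 and 3.18 in Cy5 (limma dye term, adjusted p = 0.00263). IGFBP6 was the only member called lower, at -2.66 to -2.16 in cows 1 to 6 and 0.18 in cow 7 (-1.99 ± 0.97, 0.000659).

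In iron and haem handling 13 of 18 were called higher and 2 lower. SLC39A14, an importer of zinc and iron, SLC40A1, the iron exporter ferroportin, and TFR2, an iron sensor of hepatocytes, had means of 4.51 ± 1.35, 4.12 ± 1.56 and 4.10 ± 1.02 SD (adjusted p = 4.87e-05, 0.000157 and 2.5e-05). BLVRA, a biliverdin reductase, was lower at -2.71, -2.19 and -0.29 (-1.97 ± 0.79, 0.000253). The other member called lower, named after its value was seen, was TFRC, the transferrin receptor of dividing cells, at -0.82.

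**Figure D2:**
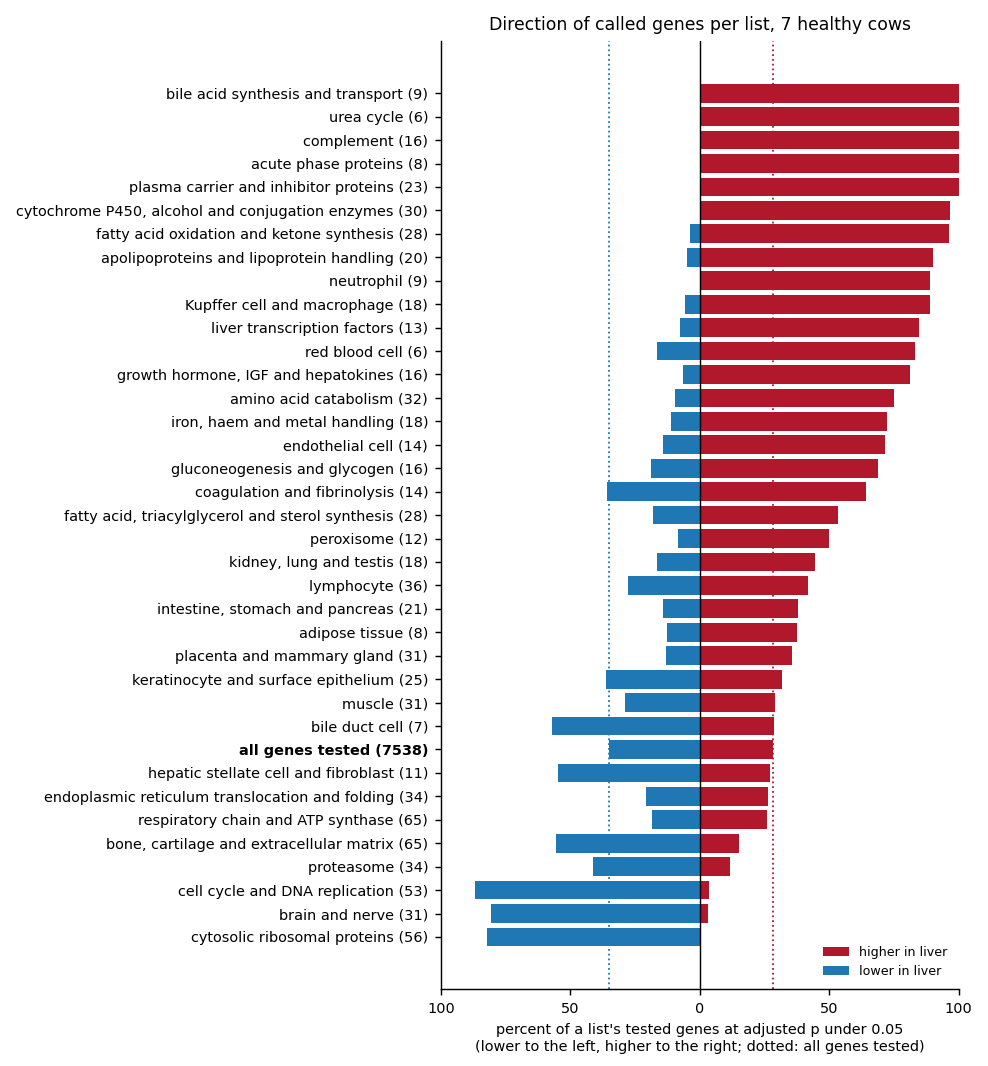
Percent of each list's tested genes (numbers in parentheses) called higher (right, red) or lower (left, blue) in liver at an adjusted p under 0.05 over 7 healthy cows; dotted lines mark all genes tested, 28.5% higher and 34.9% lower. The lists of plasma proteins, complement, acute phase, urea cycle, bile acid, cytochrome P450 and neutrophil genes hold only higher calls, and cytosolic ribosomal proteins only lower ones.

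The lists of machinery common to all cells had medians near or below the median spot. Of 56 cytosolic ribosomal proteins 46 were called lower and none higher, with a median of -0.87 that was below 0 in every cow. All 56 means were below 0, so no member was higher at an unadjusted p under 0.05 either. RPL23, a protein of the large subunit, was among the genes with the smallest spread, at -0.56 to -0.45 in cows 1 to 6 and -0.86 in cow 7 (mean -0.57 ± 0.14 SD, n = 7, adjusted p = 0.000891). RPS14, named after its value was seen, was not called, with 2 probes that passed in opposite directions (-0.54 and 0.51). Proteasome genes had 4 called higher (11.8%) and 14 lower (41.2%) of 34, median -0.30.

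In the respiratory chain 17 genes were called higher (26.2%), 12 lower (18.5%) and 36 not called of 65, with a median of 0.00. Over all genes 28.5% were higher and 34.9% lower, and a share near these is not a result about a list. NDUFS7, a complex I subunit, gave 1.68, 2.53 and 2.90 (mean 2.41 ± 0.49 SD, n = 7, adjusted p = 1.52e-05). UQCRQ of complex III and SDHC of complex II had means of 1.503 and 1.47, and NDUFB6 of complex I one of -1.05. Of 34 genes of ER translocation and folding 9 were called higher (26.5%) and 7 lower (20.6%), the higher share again near that of all genes. ERP29, a lumenal chaperone, was even at 1.30 to 1.84 in cows 1 to 6. HSPA5, the chaperone BiP, was not: cow 4 stood at 1.45 and the other cows between -2.18 and -0.48 (-1.05 ± 1.26, 0.0458), a call lost without cow 7 (adjusted p = 0.0714) and without any 1 of cows 1, 2, 3, 5 and 6 (adjusted p = 0.059 to 0.117), and on arrays with liver in Cy5 alone (0.0779). DNAJB9, its co-chaperone, was highest in the same cow, at 3.50 against -0.58 to 1.79 in the others (1.34 ± 1.22, 0.0155), and was not called with arrays as deposited (0.97, 0.0735). With arrays as deposited the medians of the respiratory chain and ER lists were -0.36 and -0.25.

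The household genes ACTB (beta-actin) and GAPDH were below the median spot on all of their 7 probes each. ACTB ran from -1.45 through -0.96 to -0.55 (mean -0.98 ± 0.28 SD, n = 7, adjusted p = 0.000183) and GAPDH from -2.03 through -1.34 to -0.62 (-1.36 ± 0.46, 0.000177). Their probe means spanned -1.05 to -0.91 and -1.51 to -1.28, so the 7 probes of each gene gave like means. ACTB depended on the dye, at -1.30 with liver in Cy3 and -0.67 in Cy5 (limma dye term, adjusted p = 0.0119).

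Cell cycle and DNA replication genes were lower in 46 of 53 tested and higher in 2, with a median of -1.68 (-1.90 without cow 7). TOP2A, a topoisomerase of dividing cells, ran from -5.52 through -4.82 to -1.44 (mean -4.26 ± 1.42 SD, n = 7, adjusted p = 8.56e-05). CDKN3, a phosphatase of cyclin-dependent kinase, was the opposite, at 0.90, 1.76 and 2.001 (1.62 ± 0.38, 3.86e-05). The other was MCM5, a replication helicase subunit, at 0.44 ± 0.39 (adjusted p = 0.0274). That call was lost with arrays as deposited (0.078, 0.671), on arrays with liver in Cy3 alone (0.0953) and without cow 1, 4 or 5 (0.0565 to 0.0699). CCNB2, a mitotic cyclin, was among the most variable genes: cow 3 was at 1.32, cow 6 at -6.12 and the rest between (-2.71 ± 2.34, 0.0111), a call lost on arrays with liver in Cy5 alone (-2.12, 0.15).

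Genes of other tissues gave a mixed picture. In bulk RNA, fewer cells of a type and less RNA per cell cannot be told apart. Brain and nerve genes were called lower in 25 of 31 and higher in 1, with a median of -1.80. CAMK2A, a synaptic kinase measured in cows 1 to 6, ran from -6.12 to -4.76 (mean -5.46 ± 0.65 SD, n = 6, adjusted p = 3.64e-06), and UCHL1, a neuronal ubiquitin hydrolase, gave -5.27, -4.28 and -2.24 (-3.98 ± 1.01, 2.72e-05). SCG5, a secretory granule chaperone, was the higher one, at 0.54 to 1.39 (0.94 ± 0.25, 0.000172). MBP, myelin basic protein, was not called (adjusted p = 0.479; 0.0285 with arrays as deposited), and its 2 probes passed in opposite directions, at -0.84 and 0.65.

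Muscle genes had 9 called in each direction of 31 (29.0% each), near the shares of all genes, 28.5% higher and 34.9% lower. Those lowest were ANKRD1, at -5.22, -4.64 and -1.10 (mean -4.09 ± 1.39 SD, n = 7, adjusted p = 9.34e-05), CAPN3, a muscle protease, at -3.92, -3.43 and -1.44 (-3.18 ± 0.84, 3.34e-05), and TPM1, a tropomyosin also used outside muscle. TPM1, whose ratio depended on the dye (adjusted p = 0.00644), had the smallest SD of these, at -3.42, -3.05 and -2.90 with cow 7 inside the range (-3.14 ± 0.21, 7.31e-07). Lists of placenta and mammary gland, digestive tract, and kidney, lung and testis held 31, 21 and 18 tested genes. Called higher were 11, 8 and 8 (35.5%, 38.1% and 44.4%), and lower 4, 3 and 3 (12.9%, 14.3% and 16.7%). Genes of small whole-number ratios had at least 25% of values equal to the log2 of a ratio of whole numbers up to 10. They numbered 12, 7 and 1 in these lists and 316 of 7538 in all, for a reason that was not tested.

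Some genes listed for other tissues were well above the median spot. CLDN7, a tight junction protein of epithelia, gave 1.95, 5.31 and 6.88 (mean 5.25 ± 1.67 SD, n = 7, adjusted p = 6.38e-05). AMY2B, an amylase, lay at 3.77 to 5.24 in cows 1 to 6 (4.51 ± 0.59, n = 6, 5.06e-06), and SFTPD, a collectin best known from lung, at 1.73, 4.86 and 6.85 (4.61 ± 1.72, 0.000142). CHIA, an acidic chitinase, CYP11A1, the first enzyme of steroid synthesis, XDH, xanthine dehydrogenase, and PRM1, a sperm protamine, had means of 4.26, 3.40, 3.44 and 3.37. Each of these is named from 1 probe through the array's annotation, and the probe sequences were not examined here. SST, somatostatin, was low at -3.86 to -2.75 in cows 1 to 6 and 0.31 in cow 7 (-2.81 ± 1.45, 0.000788).

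**Figure D3:**
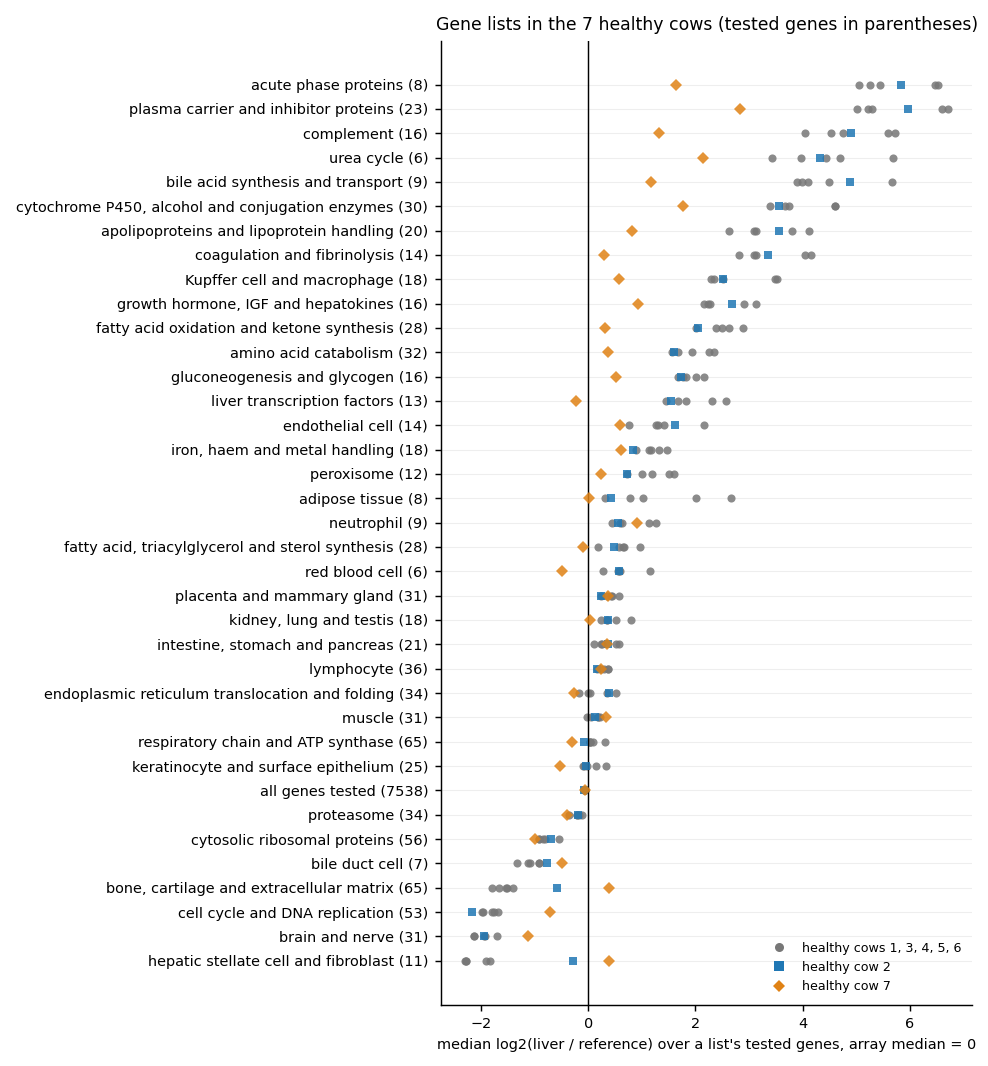
Median log2 ratio of liver over reference (x axis, 0 is the median spot) over the tested genes of each of 36 lists and over all genes, in each healthy cow; blue squares are cow 2, orange diamonds cow 7, grey points the other cows. Cow 7 lies nearer 0 or past it in the lists farthest from 0, and cow 2 stands apart from cows 1, 3, 4, 5 and 6 by most in the matrix and stellate lists (-0.595 and -0.284).

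The resident cells of the liver differed by type. Kupffer cell and macrophage markers were called higher in 16 of 18 tested, with a median of 2.34 (2.65 without cow 7). CD5L, a secreted macrophage protein, ran from 0.83 through 5.02 to 7.40 (mean 4.93 ± 2.10 SD, n = 7, adjusted p = 0.000273, 5.62 without cow 7), C1QA, a complement subunit made by macrophages that the complement list holds too, from 2.34 through 4.94 to 6.29 (4.82 ± 1.31, 3.26e-05; 3.97 with liver in Cy3 and 5.66 in Cy5), and CD68, a lysosomal macrophage marker, from 1.83 through 2.92 to 4.12 (3.18 ± 0.82, 3.01e-05). MPEG1, a perforin of macrophages, had a mean of 4.36 ± 1.92 (0.000325, 5.00 without cow 7). Cow 7 was lowest in all of these. LAPTM5, a lysosomal protein of blood cells, was lower at -1.85 to -0.81 (-1.18 ± 0.38, 0.000177).

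Endothelial markers were called higher in 10 of 14. LYVE1, which marks sinusoidal and lymphatic endothelium, was tightly grouped at 5.47 to 6.24 in cows 1 to 6, with 0.91 in cow 7 (mean 5.21 ± 1.91 SD, n = 7, adjusted p = 0.000131, 5.92 without cow 7). TEK, an angiopoietin receptor, was 3.26, 3.96 and 4.54 (4.02 ± 0.46, 2.02e-06), and PECAM1 was 2.53 to 5.67 in cows 1 to 6, highest in cow 2 (3.65 ± 1.15, n = 6, 0.000145). CAV1, the caveolae protein that capillaries of other organs carry, was lower at -4.24, -3.51 and -1.74 (-3.23 ± 0.80, 2.56e-05). The other endothelial member called lower, named after its value was seen, was ESM1, at -2.83.

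Stellate cell and fibroblast markers went mostly the other way, with 6 of 11 called lower (54.5%) and 3 higher (27.3%). Over all genes 34.9% were lower and 28.5% higher, so the higher share was near that of all genes. COL1A2, a chain of type I collagen, was -4.90, -4.96, -5.74, -4.69 and -5.72 in cows 1, 3, 4, 5 and 6, -1.63 in cow 2 and 0.40 in cow 7 (mean -3.89 ± 2.35 SD, n = 7, adjusted p = 0.00177, -4.61 without cow 7). COL3A1, type III collagen, was -3.01, -2.79, -3.28, -2.47 and -3.30 in those cows, -0.08 in cow 2 and 1.29 in cow 7 (-1.95 ± 1.81, 0.0158). In both, cows 2 and 7 did not overlap the other cows. VIM, vimentin of mesenchymal cells, was -4.49 to -2.86 in cows 1 to 6 and highest in cow 2 (-3.70 ± 0.55, n = 6, 9.18e-06). COL1A1, the partner chain of type I collagen, did not share these values: it lay at -0.18 to 0.85 and was not called (adjusted p = 0.104; 0.0467 on arrays with liver in Cy5 alone and 0.0349 with array-quality weights). ECM1, a glycoprotein of quiescent stellate cells and hepatocytes, was higher, at 2.49 to 3.47 in cows 1 to 6 (2.65 ± 1.06, 0.000231).

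The wider list of bone, cartilage and matrix genes had 36 of 65 called lower and 10 higher, with a median of -0.94 (-1.45 without cow 7). The list median was -1.81 to -1.41 in cows 1, 3, 4, 5 and 6, -0.595 in cow 2 and 0.39 in cow 7. LOXL2, a collagen cross-linking enzyme, was low in each of the 6 cows measured, at -5.02 to -3.12 (mean -4.07 ± 0.68 SD, n = 6, adjusted p = 1.25e-05). MGP, matrix Gla protein, was the highest against the list, at 0.88 to 4.62 with cow 2 on top (2.58 ± 1.31, n = 6, 0.00144). Its mean was 3.37 with liver in Cy3 and 1.60 in Cy5 (limma dye term, adjusted p = 0.0189). The median of cow 2 also lay outside those of cows 1, 3, 4, 5 and 6 for the bile duct (-0.78), cell cycle (-2.17), iron (0.828) and respiratory chain (-0.083) lists. Whether the share of connective tissue in the samples differed was not tested.

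Bile duct markers were called lower in 4 of 7 (57.1%) and higher in 2 (28.6%), beside 34.9% and 28.5% of all genes. SPP1 had the lowest mean of the list, -4.82. KRT8, a keratin of simple epithelia and so not specific to bile ducts, ran from -2.58 through -2.23 to -1.21 (mean -2.07 ± 0.49 SD, n = 7, adjusted p = 3.06e-05). EPCAM was evenly low in cows 1 to 6, at -1.16 to -0.78, and lowest in cow 7, at -3.35 (-1.36 ± 0.89, 0.00328). KRT19 was higher at -0.17, 1.18 and 2.19 (1.14 ± 0.86, 0.00703), with a mean of 2.02 with liver in Cy3 and 0.25 in Cy5 (limma dye term, adjusted p = 0.00474), and it was not called on arrays with liver in Cy5 alone (0.582).

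Of 36 lymphocyte genes 15 were called higher (41.7%) and 10 lower (27.8%), beside 28.5% and 34.9% of all genes. The higher calls were led by CD3E of T cells, at 2.69 to 3.76 in 5 cows (mean 3.23 ± 0.47 SD, n = 5, adjusted p = 2.98e-05), and JCHAIN of plasma cells, at 0.70, 2.65 and 3.38 (2.40 ± 0.996, 0.000272). Cow 7 was among those measured for CD3E, at 2.98. The CD3E mean was 3.29 over the 4 cows without cow 7, too few to test. CD79A of B cells was lower, at -2.74 to -1.34 in cows 1 to 6 (-2.31 ± 0.51, n = 6, 4.7e-05). Of 9 neutrophil genes 8 were called higher (88.9%), 2 of them liver-rich, with a median of 0.73. They were led by FCGR3A, an Fc receptor (3.06 ± 1.19, 0.000184), and LTF, lactoferrin (1.85 ± 0.88, 0.000618). The neutrophil median was 0.36 with arrays as deposited and 1.29 on arrays with liver in Cy3 alone. Of 6 red cell genes 5 were called higher, none by 2-fold, while CA2, carbonic anhydrase II, was lower at -3.61, -3.11 and -1.15 (-2.82 ± 0.79, 4.43e-05). With arrays as deposited the higher calls of AHSP (0.31, adjusted p = 0.315) and GYPC (0.57, 0.0856) were lost. That of AHSP was also lost on arrays with liver in Cy5 alone (0.0724) and without cow 1, 2, 3, 4 or 6 (0.0633 to 0.075). The list medians of lymphocyte, neutrophil and red cell genes spanned 0.155 to 0.363, 0.45 to 1.27 and 0.28 to 1.14 over cows 1 to 6.

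**Figure D4:**
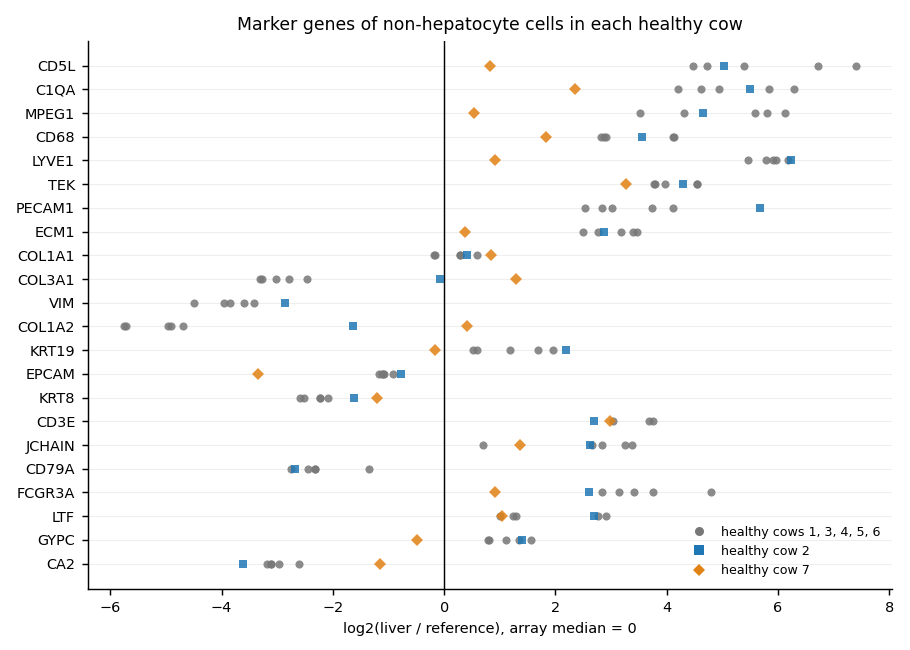
Log2 ratio of liver over reference (x axis, 0 is the median spot) of marker genes of macrophages, endothelium, stellate cells, bile duct and blood cells in each healthy cow, 1 point per cow; blue squares are cow 2 and orange diamonds cow 7. COL1A2 and COL3A1 separate cows 2 and 7 from the other 5; cow 7 is lowest for CD5L, C1QA, MPEG1, CD68, LYVE1 and TEK, and PECAM1, not measured in cow 7, is highest in cow 2 at 5.67.

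Healthy cows were not alike in every gene even with cow 7 left aside. The median SD of a gene was 0.43 over 7 cows and 0.29 over the other 6, among 6213 genes measured in all. CYP2C23, a P450 of the 2C family, varied most: it was 6.96, 3.52, 6.84, 7.96 and 8.63 in cows 1, 3, 4, 5 and 6, 0.26 in cow 2 and 3.94 in cow 7 (mean 5.44 ± 2.99 SD, n = 7, adjusted p = 0.00104). IGF2BP2, a binder of mRNA, was -0.53 to -0.30 in cows 2, 3, 4 and 7 and -1.63, -2.96 and -4.38 in cows 1, 5 and 6 (-1.51 ± 1.60, adjusted p = 0.0275), a call lost without cow 1 (0.0563) or cow 5 (0.0758). GNPTAB, which tags lysosomal enzymes, was -2.51 to -0.07 in all cows but cow 6, at 2.28 (-0.80 ± 1.54, not called, 0.183), and passed without cow 6 (-1.31, 0.00511), with arrays as deposited (0.0427), with liver in Cy3 alone (0.00279) and with array-quality weights (0.0395). At the other end, MCU, the mitochondrial calcium channel, spanned only -1.19 to -1.09 in cows 1 to 6, with -0.39 in cow 7 (-1.04 ± 0.29, 0.000149), and the kinase HIPK4 0.47 to 0.54, with 0.81 in cow 7, a call lost with arrays as deposited (0.19, adjusted p = 0.216).

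The ketotic cows were measured against the same reference, and the difference between the groups shares the healthy cows, so the values are set side by side only. Of 6958 genes tested in both, 838 (12%) differed, 69 higher (0.992%) and 769 lower (11.1%) in ketotic cows, with a median difference of -0.16. Among liver-rich genes, ALB was 6.29 to 8.22 in healthy and 7.18 to 10.62 in ketotic cows (difference 1.64 ± 0.43 SE, limma adjusted p = 0.0233), with overlap. FBP1 was 1.74 to 5.12 in healthy and 5.39 to 6.26 in ketotic cows, without overlap (1.70 ± 0.40, 0.015; 1.31 and 0.00172 without cow 7). APOA1 was 3.14 to 4.27 and 3.97 to 5.31 (0.89 ± 0.22, 0.02).

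Others were lower in ketotic cows. FADS2 was 2.88 to 5.91 in healthy and -3.88 to 4.89 in ketotic cows (difference -4.08 ± 0.98 SE, limma adjusted p = 0.0163), and LIPC 4.25 to 6.96 and 2.67 to 5.21 (-1.62 ± 0.48, 0.0448). SDHC was 0.72 to 2.04 and -0.13 to 0.92 (-1.03 ± 0.23, 0.0119). FADS1, not called in healthy cows, was -0.87 to 1.12 there and -3.62 to 0.03 in 5 ketotic cows (-2.73 ± 0.55, 0.00906). Genes already low were lower still: KRT8 at -3.43 to -2.65 (-0.97 ± 0.21, 0.0114), LAPTM5 at -2.67 to -1.72 (-0.93 ± 0.19, 0.00844) and FASN at -2.59 to -1.85 (-0.83 ± 0.26, 0.0483).

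For most named genes the difference missed the threshold, which does not show that the groups were alike. PCK1 was 4.27 to 7.36 in healthy and 6.25 to 7.29 in ketotic cows (difference 0.63 ± 0.37 SE, limma adjusted p = 0.283). PC was 0.87 to 2.96 and 2.47 to 3.55 (0.81 ± 0.27, 0.0647), and passed without cow 7 (0.57, 0.0341). APOB was 0.41 to 9.87 and, in 5 ketotic cows, 6.15 to 8.92 (-0.24 ± 1.29, 0.934); without cow 7 the difference was -1.42 and passed (0.0465). The count of differing genes rose from 838 to 1281 of 6878 (18.6%) without cow 7.

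**Figure D5:**
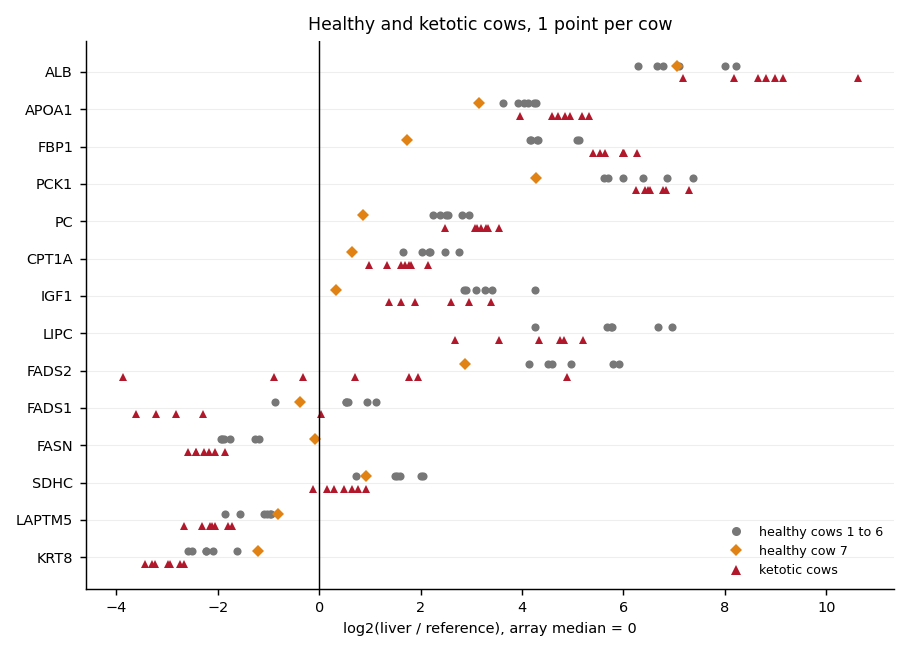
Log2 ratio of liver over reference (x axis, 0 is the median spot) of 14 named genes, 1 point per cow; grey points are healthy cows 1 to 6, orange diamonds healthy cow 7 and red triangles the ketotic cows. All ketotic cows lie above all healthy cows for FBP1 and below all for KRT8, while PCK1, PC, CPT1A and IGF1 overlap.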

How the data were processed

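Liver RNA of 7 healthy and 7 ketotic cows was hybridised with a reference RNA from cattle tissues on 28 two-colour arrays. The deposited values are log2 ratios of both dyes. The authors' background correction, spot filter and normalization are not given in the sources used here. Of 13824 probes, 8645 had 1 gene symbol in the platform annotation, 105 several and 5074 none; 8620 of the first matched RefSeq. The sign was turned on arrays whose liver RNA was in Cy3, values at or above 16.61 dropped, arrays centred on their median, and adjacent spots, the 2 arrays of a cow and the probes of a gene averaged. Genes needed 5 cows. Limma 3.58.1 (R 4.3.3) tested each mean against 0 (lmFit, eBayes, Benjamini-Hochberg over 7538 genes), and ketotic minus healthy over 14 cows. The code was tested on simulated data.

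The cows, genes and the 36 lists were chosen with earlier results of these data known. Named genes are the 15 highest and 15 lowest called genes measured in all 7 cows with 1 sign on both dyes, the 3 leading called members of each list and its leading member against the list direction, a set of well-known genes, and the 6 most and 6 least variable genes over cows 1 to 6. The number of arrays limits the precision.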

Additional observations from a re-analysis of the deposited data

Results flagged for a closer look

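Single cows lay far from the rest of their group, by Dixon's criterion at the 95% level, in 63 of 163 named genes, and in 61 of them the cow was healthy cow 7. Chance gives about 1 in 20 groups, but that share is no yardstick for genes named by their spread. HIPK4, MCU, RPL23, ARHGEF17, ZNHIT3 and CDC42SE2 were named for the smallest SD over the healthy cows other than cow 7. That choice by itself makes a far value in cow 7 likely, so they say nothing on how often cow 7 lay apart. ITGAD was likewise named for a large SD over those cows. Over all 6213 genes measured in 7 cows the criterion was met by 24.0%, and 88.2% of those had cow 7 at the end. In cow 7 these values were APOB 0.41, CP 2.001, FABP1 4.16, FMO1 1.80, C5 1.66, IGFBP1 3.905, APOH 4.64, DPYS 2.89, EMP1 0.056, THBS1 -2.90, CXCR4 -1.48, LGALS3 0.43 and ANKRD1 -1.10. The next were FGL1 0.96, F9 0.75, C1S 1.63, ADH4 4.27, ADH6 2.43, TAT 0.60, MAT1A 1.55, HGD 2.65, OTC 3.06, ARG1 1.503, FBP1 1.74, SLC37A4 1.12 and DGAT2 0.91. Then came ME1 -0.70, CAT 1.83, PECR 1.45, PHYH 1.26, KLF15 -0.16, NR2F1 -0.48, LEPR 0.35, IGFBP6 0.18, SLC39A14 1.59, SLC40A1 0.80, BLVRA -0.29, PSMB1 1.61 and PSMD11 -0.31. Further values of cow 7 were ERP29 0.28, CAPN3 -1.44, CDH1 -0.068, SST 0.31, XDH 2.08, CFD 0.69, ECM1 0.37, LYVE1 0.91, EPCAM -3.35, CA2 -1.15, GYPC -0.49, AHSP -0.501 and PC 0.87. Cow 7 also had IGF1 0.33, FASN -0.075, MBP -0.57, HIPK4 0.81, MCU -0.39, RPL23 -0.86, ARHGEF17 0.34, ZNHIT3 -0.33 and CDC42SE2 -0.14. The others were CD79A in healthy cow 1 at -1.34 and ITGAD in healthy cow 3 at 3.43. Among list medians, 12 of 36 set cow 7 apart on the log2 scale, those of acute phase proteins 1.64, coagulation and fibrinolysis 0.29, complement 1.31, cytochrome P450 / alcohol and conjugation enzymes 1.77, amino acid catabolism 0.37 and gluconeogenesis and glycogen 0.51, as well as bile acid synthesis and transport 1.18, fatty acid oxidation and ketone synthesis 0.30, liver transcription factors -0.24, brain and nerve -1.12, Kupffer cell and macrophage 0.58 and cell cycle and DNA replication -0.72.

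Of the named genes 16 differed between ketotic and healthy cows by limma's adjusted p over all genes, a comparison that holds cow 7. Some named genes could not be tested in it. The share of named genes that differed was no larger than that of all genes tested, so the count does not set the named genes apart. The differences, ketotic minus healthy on the log2 scale, were ALB 1.64, LIPC -1.62, FBP1 1.70, FADS2 -4.08, SDHC -1.025, PSMF1 -0.59, PSMD11 -0.57, PDIA4 -0.66, LAPTM5 -0.93, KRT8 -0.97, APOA1 0.89, FASN -0.83, FADS1 -2.73, ACTB -0.49, RPL23 -0.58 and ARHGEF17 0.49.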

How the results depend on the processing

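Results were recomputed under 28 other settings. Of 900 list medians 860 kept their value within 1 SD of the list median over the 7 cows. That limit holds cow 7, so it is wide where cow 7 lay apart. With array medians as deposited, higher calls fell to 1165 and liver-poor genes rose to 1992. Limma's test against a 2-fold threshold called 985 genes, 478 higher (all liver-rich) and 507 lower (all liver-poor). Probes in place of genes gave 3349 higher calls of 11788, a share of 28.4% beside 28.5% of genes. Leaving out 1 healthy cow gave 4205 to 5302 calls, 1862 to 2420 higher, 2322 to 2882 lower, 855 to 995 liver-rich and 1150 to 1300 liver-poor, with the highest values without cow 7. The ketotic minus healthy count of 838 became 1281 without healthy cow 7. MBP turned to 0.65 with the probe of most values, and LIPE from -0.71 to 0.032 with values at the ceiling kept. As deposited, medians of the respiratory chain, ER, muscle and lymphocyte lists were -0.36, -0.25, -0.13 and -0.14. The muscle median was also below 0 with liver in Cy5 only (-0.078), with all 7 cows required (-0.25) and without genes of small whole-number ratios (-0.058), and the placenta and mammary median was -0.19 with liver in Cy5 only. The causes were not tested. The order of centring, the small whole-number ratios and leaving out cows 2 and 7 together were chosen after seeing the data. No paired analysis was possible because the replicate numbers only name the cows, and no label pairs healthy with ketotic cows.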

Other observations

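Genes of adipose tissue and of surface epithelium were also measured. Of 8 adipose genes 3 were called higher (37.5%) and 1 lower (12.5%), beside 28.5% and 34.9% of all genes. CFD, the complement factor adipsin that the complement list holds too, ran from 0.69 in cow 7 to 5.53 in cow 6 (mean 3.98 ± 1.59 SD, n = 7, limma adjusted p = 0.000204), and PNPLA2, a triglyceride lipase, from 1.02 to 2.80 in the same cow and cow 5 (2.03 ± 0.59, 6.38e-05). RETN, resistin, ran from -0.21 in cow 7 to 2.56 in cow 6 (0.995 ± 1.002, adjusted p = 0.0248). The RETN call was lost with liver in Cy5 alone (0.44), with a dye term over 14 arrays (0.0592), with arrays as deposited (0.108) and without cow 3, 4, 5 or 6 (0.0506 to 0.0684). The adipose gene called lower was LIPE, at -0.71 ± 0.41 (n = 6, adjusted p = 0.00624). Its 2 probes differed, with means of -1.22 (adjusted p = 0.00188) and -0.09 (0.668). The median of the adipose list was 2.01 and 2.67 in cows 5 and 6 and 0.31 to 1.01 in cows 1 to 4.

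Of 25 keratinocyte and surface epithelium genes 8 were called higher (32%) and 9 lower (36%), with a median of -0.03, shares near those of all genes (28.5% and 34.9%). CDH1, the E-cadherin of epithelial junctions, was 2.46 to 2.94 in cows 1 to 6 and -0.07 in cow 7 (mean 2.29 ± 1.06 SD, n = 7, adjusted p = 0.000469). KLF5, a transcription factor of proliferating epithelia, was -3.67 to -2.35 in cows 1 to 6 (-2.76 ± 0.49, n = 6, 2.26e-05).

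The dye changed the ratio of 759 genes (10.1%) by limma's dye term. Of the liver-rich genes 6, and of the liver-poor genes 1, had means of opposite sign with liver in Cy3 and in Cy5. In 42 genes with several probes, probes passed in opposite directions. Values at the ceiling, a ratio of 100000, numbered 1777 on arrays with liver in Cy5 and 1409 with liver in Cy3.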
